A study of Mus musculus with 24 samples.

Results

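Gata3 and 8 further T-lineage genes were followed in LSK cells, the lineage-negative, Sca-1-positive, Kit-positive fraction of blood-forming tissue that holds stem and early progenitor cells. The 9 genes were Gata3, Tcf7, Bcl11b, Notch1, Id2, Zbtb16, Lck, Thy1 and Cd3e, out of 55487 genes in the count table, and 8 of the 9 were among the 23059 genes that passed the filter on low counts. Cd3e did not pass. They were taken by name as regulators and markers of T and innate lymphoid cells. The set was chosen by the measured expression of Gata3, which was known from these libraries to be low where MLL::ENL had been induced in the fetus and not where it had been induced at birth. The level of Gata3 is therefore described throughout with no test, and tests are given only for the other members.

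The libraries came from mice with a Tet-off transgene for human MLL::ENL (ME), a leukemia fusion of the chromatin regulator MLL with ENL, and from wild-type mice (WT), in 6 groups of 4 libraries. Liver cells at postnatal day 0 (P0) came from WT mice (P0 WT) and from ME mice induced at embryonic day E10.5 (P0 ME). Bone marrow cells at postnatal day 28 (P28) came from WT mice (P28 WT), from ME mice induced at E10.5 (P28 E10.5-induced), from ME mice induced at P0 (P28 P0-induced) and from a group whose titles add RLT Vav Txp to ME and E10.5 (RLT Vav Txp), a name that the labels do not expand. Neither the mouse strain nor the promoter that drives the transgene is given in the sources used here. All P0 libraries are from liver and all P28 libraries from bone marrow, and age and tissue cannot be told apart. The design text names 4 biological replicates per group and a Lineage-negative KIT-positive sort, while the labels name LSK cells. Kit was read in all 24 libraries, at 169 CPM or more, and so was Ly6a, the gene for Sca-1, at 71.2 CPM or more, where CPM is the library-size scaled count after TMM.

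T cells arise when a lymphoid progenitor reaches the thymus and its Notch1 receptor meets Delta-like ligand there. Notch signalling turns on Tcf7, which codes for TCF-1, and Gata3, and these factors with Bcl11b close off the other blood lineages before the T-cell receptor is assembled with CD3 chains such as Cd3e and signals through the kinase Lck. Id2, an inhibitor of E proteins, and Zbtb16, which codes for PLZF, belong to the innate lymphoid branch, which also needs Gata3. Gata3 has besides been described in blood stem cells, and Thy1 marks T cells and, at lower levels, mouse stem cells.

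Promoter sequences are shown for Gata3, whose level separated the ME groups, and for Notch1, Lck and Id2, the members called in RLT Vav Txp against P28 WT. They are the 250 bases before the RefSeq start on GRCm38.p6, printed 5′ to 3′ on the gene's own strand, with motif matches in capitals. Bases that the annotation places in a UTR or coding exon were left off, which shortened the proximal Lck window to 231 bases and the Id2 window to its outer 89 bases.
Gata3, chr2:9878601-9878850, minus strand: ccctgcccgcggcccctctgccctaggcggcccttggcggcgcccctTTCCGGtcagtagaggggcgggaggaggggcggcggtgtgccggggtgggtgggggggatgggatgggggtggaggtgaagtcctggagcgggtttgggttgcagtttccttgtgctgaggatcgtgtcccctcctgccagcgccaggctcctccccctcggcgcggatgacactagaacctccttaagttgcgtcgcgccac
Notch1, chr2:26503823-26504072, minus strand: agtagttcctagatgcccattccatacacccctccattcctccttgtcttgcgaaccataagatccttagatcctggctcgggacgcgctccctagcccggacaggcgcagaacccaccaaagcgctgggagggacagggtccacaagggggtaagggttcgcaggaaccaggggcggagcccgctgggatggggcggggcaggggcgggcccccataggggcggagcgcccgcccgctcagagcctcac
Lck distal promoter, chr4:129573642-129573891, minus strand: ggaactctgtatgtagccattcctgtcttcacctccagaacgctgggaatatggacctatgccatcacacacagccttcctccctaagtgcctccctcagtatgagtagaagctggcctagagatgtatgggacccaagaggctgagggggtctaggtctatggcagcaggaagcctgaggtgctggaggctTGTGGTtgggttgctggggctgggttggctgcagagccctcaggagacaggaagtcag
Lck proximal promoter, chr4:129558392-129558622, minus strand: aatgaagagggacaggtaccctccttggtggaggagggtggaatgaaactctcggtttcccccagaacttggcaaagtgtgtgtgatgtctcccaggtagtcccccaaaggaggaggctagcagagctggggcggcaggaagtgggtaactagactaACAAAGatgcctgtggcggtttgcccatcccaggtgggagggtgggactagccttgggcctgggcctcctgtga
Id2, chr12:25096254-25096342, minus strand: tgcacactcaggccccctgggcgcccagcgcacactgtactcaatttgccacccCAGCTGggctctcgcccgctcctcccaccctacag
The Gata3 window held 19 CpG pairs and the Notch1 window 16, against a median of 6 over 32851 promoters of this length, while the whole distal and proximal Lck windows held 1 and 3 and the whole Id2 window 18. The motifs searched on both strands were AGATAA and TGATAA for GATA factors, TGTGGT and TGCGGT for RUNX, CTTTGA and CTTTGT for TCF, CCGGAA for ETS and CAGCTG for E proteins. The Gata3 window had a single match, the ETS motif read from the opposite strand 203 bases before the start, a motif that 12.0% of all promoters hold. The distal Lck window had the RUNX motif TGTGGT 58 bases before the start (14.0% of promoters), and the proximal one had the TCF motif CTTTGT on the opposite strand 93 bases before it (16.5%). The Id2 window had the E protein motif CAGCTG 196 bases before the start (13.0%). None of these matches overlapped another, and the Notch1 window held none of the 8 motifs. Of the 9 members, 7 had an entry, and Zbtb16 and Thy1 had none.

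Library totals ran from 31233688 to 89774511 counts, so that 1 CPM stood for at least 31.2 reads before scaling. Libraries 1 of both P0 groups stood apart from the other 6 P0 libraries in markers of mature cells, low for some types and, in P0 WT, high for others. The summed level of 8 macrophage markers was 131 and 123 CPM in them and 1112 to 1561 CPM in the other 6, and neutrophil and erythroid sums were also lower. P0 WT library 1 had the highest mast cell and basophil sum, 5857 CPM against 586 to 1227 CPM in the other P0 WT libraries, and the highest natural killer and innate lymphoid sum, 525 against 111 to 171 CPM. In bone marrow the macrophage sum was 46.3 to 105 CPM in the 3 other groups and 729 to 3132 CPM in RLT Vav Txp. No macrophage marker was at 0 in a whole group. In sums from bulk cells, fewer cells of a type and less RNA per cell cannot be told apart.

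Gata3, the zinc-finger factor of T and innate lymphoid development (chromosome 2, positions 9857078 to 9890034, minus strand, GRCm38), was low in both groups with E10.5 induction alone. It stood at 19.1, 10.7, 9.38 and 19.4 CPM in the P0 WT libraries and at 3.85, 1.93, 5.77 and 3.01 CPM in P0 ME. In bone marrow it stood at 24.1, 19.1, 27.0 and 16.8 CPM in P28 WT and at 2.86, 5.18, 5.27 and 4.37 CPM in E10.5-induced ME. At neither age did the ME libraries reach the lowest WT library.

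With induction at birth the 4 libraries were at 23.2, 18.9, 20.3 and 22.7 CPM, inside the WT range. The RLT Vav Txp libraries, also labelled as E10.5-induced, were at 23.6, 28.2, 37.6 and 38.3 CPM, and the lowest of them lay above every E10.5-induced library without that addition. In order of their means the groups ran from RLT Vav Txp (31.9 ± 7.21 CPM, SD, n = 4) over P28 WT (21.7 ± 4.64), P0-induced (21.3 ± 2.06) and P0 WT (14.7 ± 5.36) to P28 E10.5-induced (4.42 ± 1.11) and P0 ME (3.64 ± 1.63). Each group in this order overlapped the next one, apart from the step from P0 WT to P28 E10.5-induced.

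As log2 fold changes with their SE, given as a description, Gata3 differed by -2.01 (SE 0.31) in P0 ME against P0 WT and by -2.29 (SE 0.31) in P28 E10.5-induced ME against P28 WT. P0-induced ME against P28 WT gave -0.03 (SE 0.30), and RLT Vav Txp against P28 WT gave 0.55 (SE 0.30). These 3 comparisons at P28 share the WT libraries. Against E10.5-induced ME, the P0-induced group stood 2.26 (SE 0.31) and the RLT Vav Txp group 2.85 (SE 0.32) higher. Between the ages the differences were smaller, 0.57 (SE 0.30) in WT and 0.28 (SE 0.30) in ME. Leaving out single libraries moved the P0 value between -2.32 and -1.83 and the P28 value between -2.40 and -2.10. With library 1 alone kept in each P0 group, an alternative chosen after seeing the data, the P0 value was -2.31. These libraries differ in other markers: the mast cell and basophil sum was 5857 CPM in P0 WT library 1 and 45.3 CPM in P0 ME library 1, and the natural killer and innate lymphoid sum was 525 and 37.4 CPM. Over all 4 libraries the mast cell and basophil sum ran from 586 to 5857 CPM in P0 WT and from 45.3 to 590 CPM in P0 ME, ranges that overlapped. The part of these cells in the Gata3 difference was not tested.

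**Figure D1:**
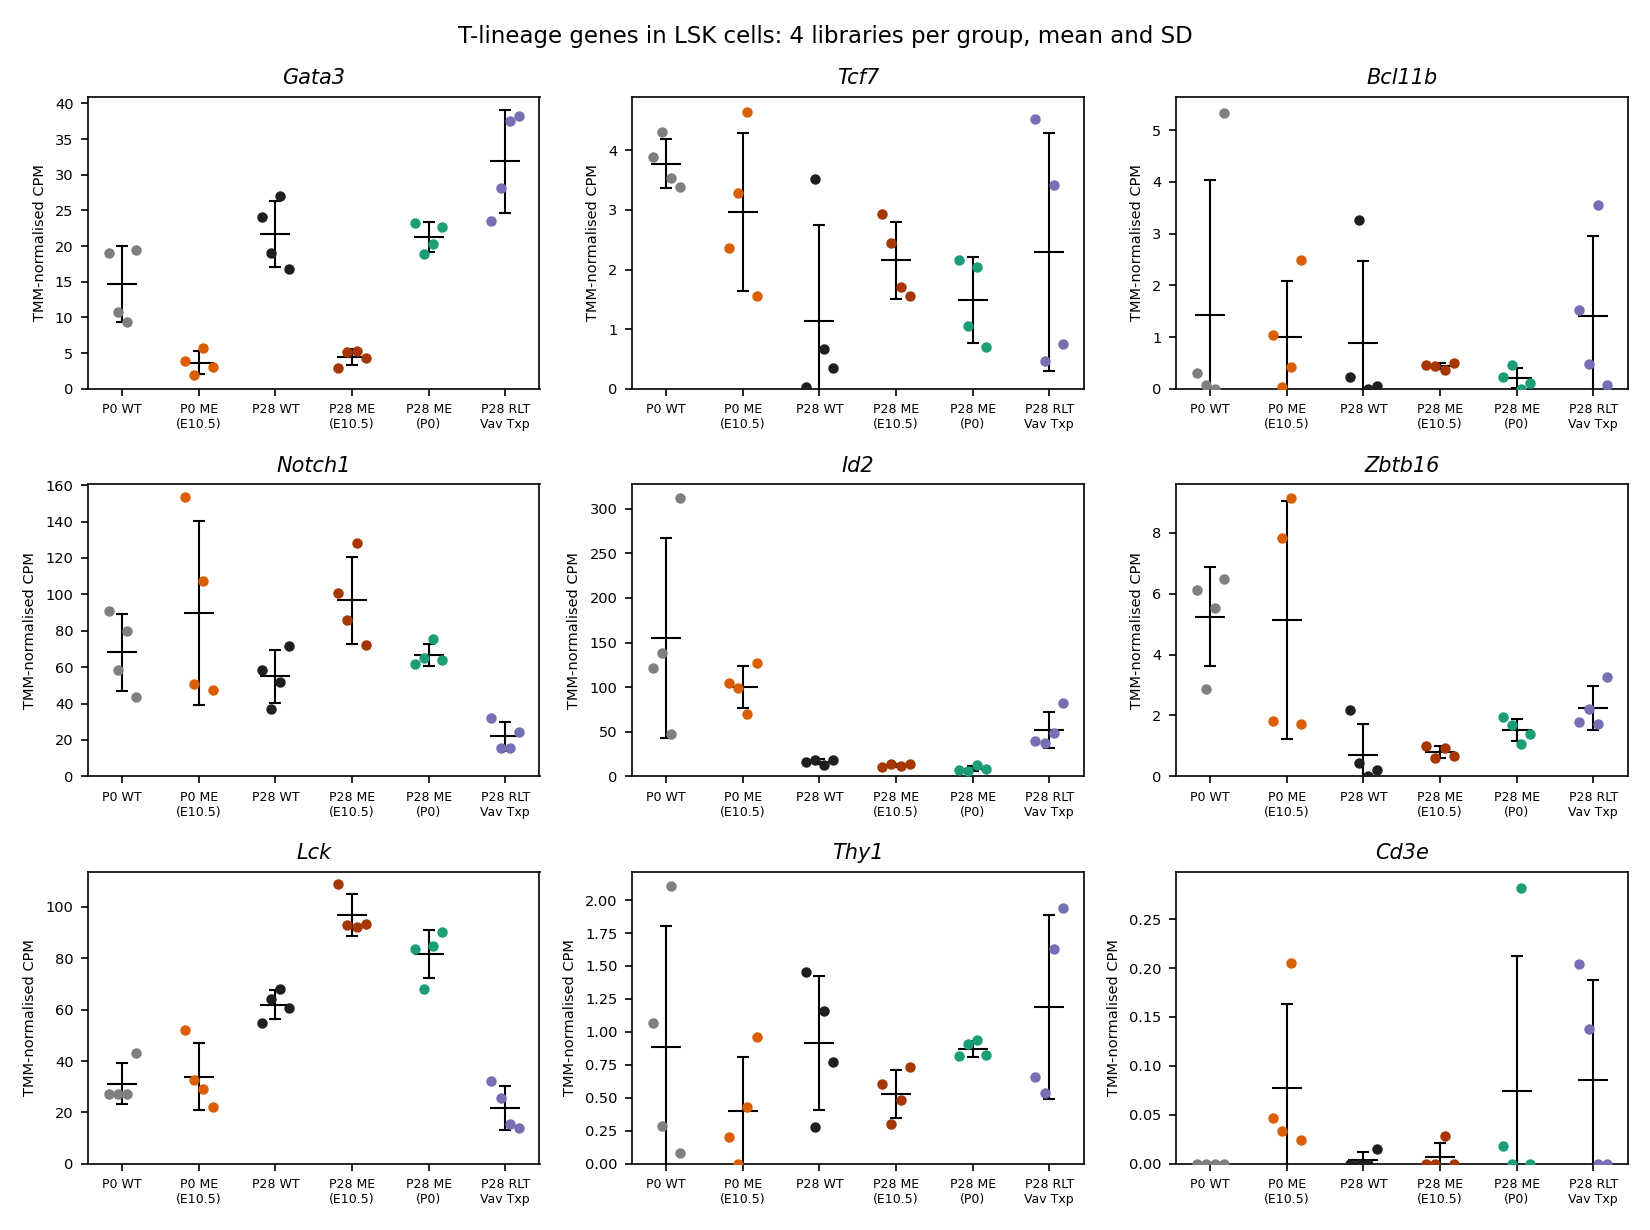
TMM-normalised CPM of the 9 genes in each library (points) with the group mean and SD (n = 4), 1 panel per gene and each vertical axis starting at 0, so that SD bars reaching below 0 are not drawn in full. Gata3 is below 6 CPM in every library of both groups with E10.5 induction alone, whereas Lck and Notch1 have their lowest mean in RLT Vav Txp and Id2 its highest means at P0.

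The other T-cell specification factors were rare in these cells. Tcf7, the Notch target that codes for TCF-1, had a mean of 3.78 ± 0.407 CPM in newborn WT and 2.96 ± 1.33 CPM in newborn ME (SD, n = 4). In P28 WT it was at 0.0280, 3.51, 0.674 and 0.356 CPM, so that library 2 held most of the signal. The P28 means of the ME groups were 2.16 ± 0.646 CPM with E10.5 induction, 1.49 ± 0.723 CPM with P0 induction and 2.29 ± 2.00 CPM in RLT Vav Txp, which all overlapped WT. Tcf7 was called in 0 of 9 comparisons by the edgeR quasi-likelihood test, with a smallest adjusted p of 0.213 for WT at P28 against P0.

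Bcl11b, the zinc-finger factor that locks in T commitment, averaged between 0.202 ± 0.193 CPM in P0-induced ME and 1.43 ± 2.60 CPM in P0 WT (SD, n = 4). Single libraries carried most of its counts. P0 WT was at 0.302, 0.0780, 0 and 5.33 CPM, and P28 WT was at 0.224, 3.27, 0 and 0.0619 CPM. RLT Vav Txp was at 1.52, 0.482, 3.55 and 0.0719 CPM. The edgeR test called Bcl11b in 0 of 9 comparisons, with a smallest adjusted p of 0.503.

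Notch1, the receptor whose signal starts the T program, was well expressed in all groups and lowest in RLT Vav Txp. The libraries read 90.8, 58.6, 79.9 and 43.5 CPM in P0 WT and 154, 50.6, 107 and 47.5 CPM in P0 ME, ranges that overlapped. In bone marrow the WT libraries read 58.7, 37.1, 51.9 and 71.8 CPM, those of E10.5-induced ME 101, 86.1, 128 and 72.0 CPM and those of P0-induced ME 61.9, 65.1, 75.6 and 64.1 CPM. The RLT Vav Txp libraries were at 32.3, 15.3, 15.8 and 24.6 CPM, below every other library of the series.

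Notch1 fell in RLT Vav Txp by 1.32 log2 units against P28 WT (SE 0.32, edgeR adjusted p = 0.0147) and fell by 2.14 against P28 E10.5-induced ME (SE 0.33, edgeR adjusted p = 0.000118). The call against WT was lost without P28 WT library 4 (adjusted p = 0.0612), without RLT Vav Txp library 2 (0.0620) or 3 (0.0675), and with no filter on low counts (0.0526). The call against E10.5-induced ME was kept under each alternative, with adjusted p between 9.0e-09 and 0.00106. E10.5-induced ME against P28 WT gave 0.82 (SE 0.31, edgeR adjusted p = 0.0892), with groups that did not overlap, and P0 ME against P0 WT gave 0.40 (SE 0.31, edgeR adjusted p = 0.606).

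Id2, the inhibitor that keeps E proteins off DNA and is needed for innate lymphoid cells, was higher in newborn liver than in bone marrow of WT and E10.5-induced ME. It stood at 122, 138, 47.5 and 312 CPM in P0 WT and at 104, 98.6, 69.4 and 127 CPM in P0 ME. In bone marrow it stood at 16.6, 18.4, 12.5 and 17.8 CPM in WT and at 10.6, 13.5, 11.7 and 14.3 CPM in E10.5-induced ME. No P0 library overlapped these groups.

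P28 against P0, Id2 fell by 3.25 log2 units in WT (SE 0.39, edgeR adjusted p = 1.29e-05) and fell by 2.99 in ME (SE 0.39, edgeR adjusted p = 1.95e-05). Macrophage marker sums were also higher in 6 of the 8 P0 libraries. In the fit that kept only library 1 of each P0 group, which had a low macrophage sum but, in P0 WT, the high mast cell and innate lymphoid sums above, Id2 fell by 2.84 in WT (edgeR adjusted p = 1.7e-05) and fell by 2.99 in ME (edgeR adjusted p = 2.1e-05), where the lone P0 library is assumed to vary like the other groups.

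At P28, Id2 was 7.45, 5.42, 12.5 and 8.51 CPM in P0-induced ME, where the highest library lay just under the lowest WT one, and 39.5, 37.7, 48.4 and 82.2 CPM in RLT Vav Txp, all above WT. Id2 rose in RLT Vav Txp by a log2 fold change of 1.67 against P28 WT (SE 0.37, edgeR adjusted p = 0.00777) and 2.05 against E10.5-induced ME (SE 0.37, edgeR adjusted p = 0.000756). Both calls were kept when any single library was left out. In P0-induced ME the log2 fold change was -0.95 (SE 0.37, edgeR adjusted p = 0.144), which DESeq2, limma voom and a fit of only the 2 groups put past the threshold at adjusted p of 0.0462, 0.0191 and 0.00631.

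Zbtb16, which codes for PLZF, the factor of innate-like T cells and innate lymphoid precursors, was also higher at P0, at a low level. P0 WT was at 6.12, 2.87, 5.52 and 6.48 CPM and P0 ME at 1.81, 7.82, 9.14 and 1.73 CPM. P28 WT was at 2.18, 0.431, 0 and 0.201 CPM and E10.5-induced ME at 0.996, 0.607, 0.943 and 0.663 CPM. The P0-induced libraries were at 1.06 to 1.94 CPM and the RLT Vav Txp libraries at 1.72 to 3.27 CPM, so that WT held both lower and similar values.

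P28 against P0, Zbtb16 fell by 2.92 log2 units in WT (SE 0.87, edgeR adjusted p = 0.0381) and fell by 2.67 in ME (SE 0.86, edgeR adjusted p = 0.0311). The WT call was lost without P0 WT library 3 (adjusted p = 0.0601) or 4 (0.0506), without P28 WT library 2 (0.106) or 4 (0.113), with plain library totals (0.0550), with the 20 numbered libraries alone (0.0520) and in a fit of only these groups (0.302). The ME call was lost on leaving out P0 ME library 2 or 3 or any of the 4 P28 libraries, with adjusted p of 0.0689 to 0.0900. Keeping only library 1 of each P0 group gave log2 fold changes of -3.11 in WT (adjusted p = 0.165) and -1.11 in ME (adjusted p = 0.695). RLT Vav Txp against P28 WT gave 1.70 (SE 0.84, edgeR adjusted p = 0.338). Without P28 WT library 1 the same comparison gave 3.50 and passed the threshold (adjusted p = 0.0274).

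Lck, the kinase that starts T-cell receptor signalling, was the most abundant member per length in P28 WT and in both ME groups of P28 other than RLT Vav Txp, where Id2 (21.3 ± 8.50 RPKM) and Gata3 (8.02 ± 1.81) had higher means than Lck (7.44 ± 2.93, SD, n = 4). Its level was 27.3, 27.2, 27.2 and 43.1 CPM in P0 WT and 52.1, 32.8, 29.0 and 21.9 CPM in P0 ME. The bone marrow libraries of WT read 54.7, 64.3, 67.9 and 60.6 CPM, those of E10.5-induced ME 109, 92.9, 92.3 and 93.4 CPM and those of P0-induced ME 83.5, 68.2, 84.7 and 90.2 CPM. The RLT Vav Txp libraries were at 32.1, 25.5, 15.5 and 14.0 CPM, below all other P28 libraries.

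P28 against P0, Lck rose by a log2 fold change of 0.99 in WT (SE 0.24, edgeR adjusted p = 0.0117) and 1.51 in ME (SE 0.25, edgeR adjusted p = 0.000165). With only library 1 of each P0 group the ME value was 0.96 and was no longer called (adjusted p = 0.0951), whereas WT gave 1.24 (adjusted p = 0.0446). In RLT Vav Txp, Lck fell by 1.51 against P28 WT (SE 0.25, edgeR adjusted p = 0.00039) and fell by 2.15 against E10.5-induced ME (SE 0.25, edgeR adjusted p = 3.61e-06). Both of these were kept under each alternative. E10.5-induced ME against P28 WT gave 0.65 (SE 0.24, edgeR adjusted p = 0.0778) and P0-induced ME gave 0.40 (SE 0.24, edgeR adjusted p = 0.366), in both cases with groups that did not overlap.

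Cd3e, a chain of the T-cell receptor complex itself, was at or near 0. It had 0 counts in the 4 P0 WT libraries, 3, 2, 12 and 1 counts in P0 ME, and at most 1 count in P28 WT and 2 counts with E10.5 induction at P28. The P0-induced libraries had 1, 0, 18 and 0 counts and those of RLT Vav Txp 14, 10, 0 and 0. At or below the floor of 3 counts, a level allowed by counting error alone, stood 4 of 4 libraries in P0 WT, P28 WT and E10.5-induced ME, 3 of 4 in P0 ME and P0-induced ME, and 2 of 4 in RLT Vav Txp. Thy1, a surface protein of T cells, averaged 0.398 ± 0.415 CPM in P0 ME to 1.19 ± 0.699 CPM in RLT Vav Txp (SD, n = 4) and was called in 0 of 9 comparisons by edgeR, with a smallest adjusted p of 0.463. The summed level of 11 T-cell markers was 24.2 to 48.0 CPM in the 12 P28 libraries outside RLT Vav Txp, 29.4 to 77.3 CPM at P0, and 193, 19.1, 75.5 and 38.8 CPM in the RLT Vav Txp libraries. Cd2 was at 0 in every library of P0 WT, P28 WT and P0-induced ME, and Cd8b1 in every library of P0-induced ME.

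On a scale per length (RPKM, reads per kilobase of exon after scaling for library size), the members in P28 WT ran from Lck (21.1 ± 1.92 RPKM, SD, n = 4) over Id2 (6.70 ± 1.09), Gata3 (5.46 ± 1.17) and Notch1 (3.86 ± 1.01) to Tcf7 (0.435 ± 0.610), Thy1 (0.306 ± 0.170), Zbtb16 (0.133 ± 0.189) and Bcl11b (0.109 ± 0.196), with Cd3e at 0.000948 ± 0.00190. In P0 WT, Id2 led at 63.6 ± 46.0 RPKM, ahead of Lck at 10.7 ± 2.71, Notch1 at 4.79 ± 1.49 and Gata3 at 3.68 ± 1.35. In P28 E10.5-induced ME, Gata3 stood at 1.11 ± 0.280 RPKM, between Id2 at 5.13 ± 0.678 and Tcf7 at 0.822 ± 0.246.

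**Figure D2:**
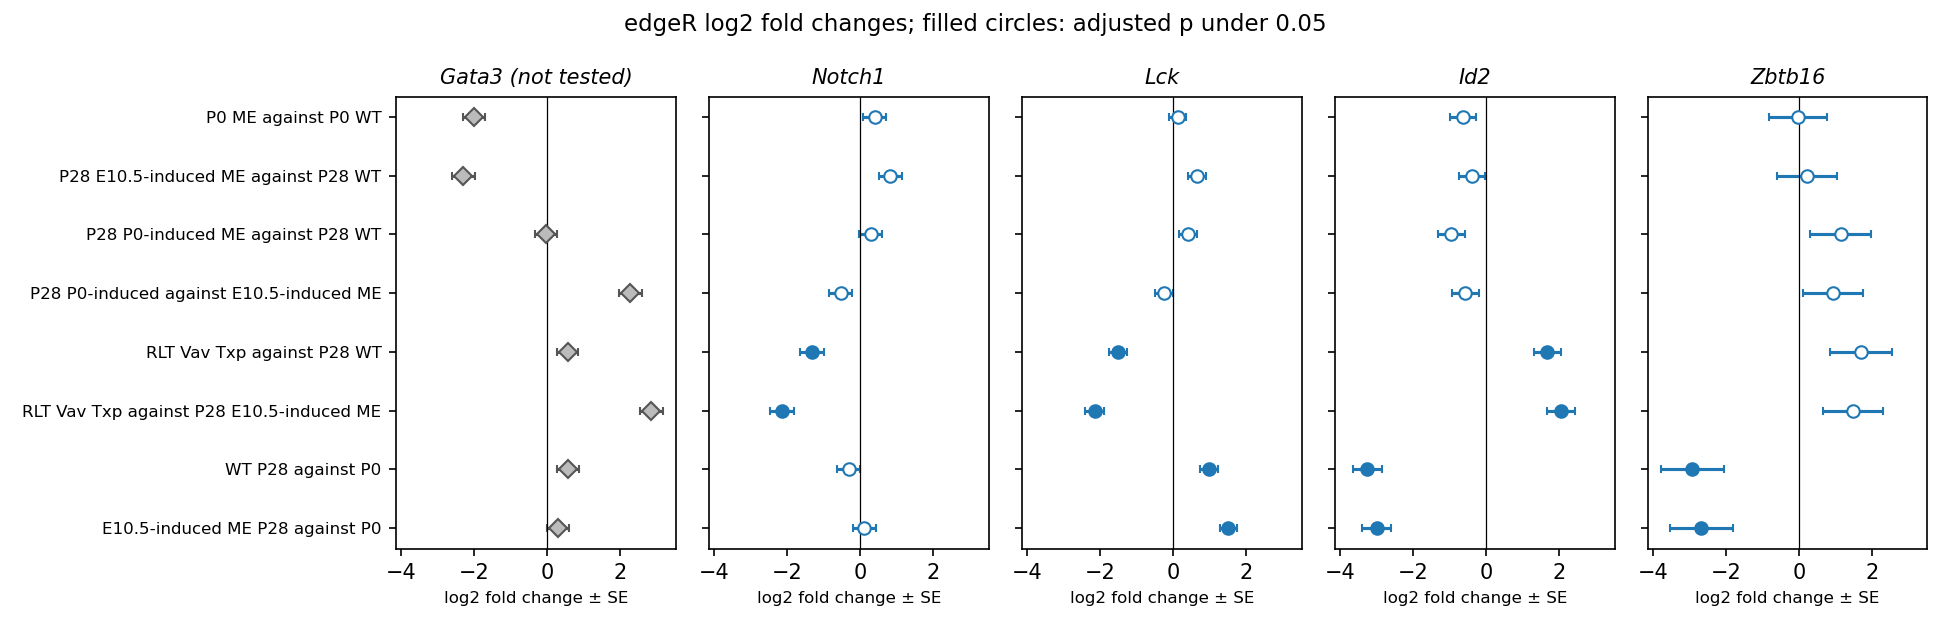
log2 fold changes with SE from edgeR (horizontal axis) for Gata3, Notch1, Lck, Id2 and Zbtb16 in 8 comparisons (1 line each). Filled circles passed an adjusted p of 0.05 and open circles did not, and Gata3 (diamonds) was not tested. The calls lie in the RLT Vav Txp and the age comparisons.

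Of the 7 tested members other than Gata3, 0 were called by edgeR in P0 ME against P0 WT, where 0.642% of all tested genes were called, 0.364% higher and 0.278% lower. An unadjusted p under 0.05 was reached by 0 members, and DESeq2 and limma voom also called 0. Over all genes DESeq2 called 802 and limma voom 16. The groups did not overlap for 0 of the 7 (3.74% of all genes). In P28 E10.5-induced ME against P28 WT edgeR called 0 (12.3% of all genes, 7.82% higher and 4.44% lower), Notch1 and Lck had an unadjusted p under 0.05, DESeq2 called 0 and limma voom 3, namely Tcf7, Notch1 and Lck. Over all 23059 genes DESeq2 called 3935 and limma voom 6492. The groups did not overlap for 2 of the 7, Notch1 and Lck (28.2% of all genes).

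In P0-induced ME against P28 WT edgeR called 0 (1.57% of all genes, 0.494% higher and 1.08% lower, a share that rests on 362 genes and on 7 to 10 when any library but P28 WT library 4 is left out, and 649 without that one), Id2 had an unadjusted p under 0.05, DESeq2 called 1 and limma voom 3. Over all 23059 genes DESeq2 called 1872 and limma voom 4998. The groups did not overlap for Id2 and Lck (24.8% of all genes). P0-induced against E10.5-induced ME gave 0 edgeR calls (0.0477% of all genes, 0.026% higher and 0.0217% lower), 0 at an unadjusted p under 0.05, 0 by DESeq2 and 1, Notch1, by limma voom. Over all 23059 genes DESeq2 called 92 and limma voom 2326 in this comparison. Here Zbtb16, Lck and Thy1 had groups that did not overlap (11.8% of all genes). These 4 comparisons served to choose the members, so nothing is read from their counts.

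In RLT Vav Txp against P28 WT, 3 of the 7 tested members were called, Id2 higher and Notch1 and Lck lower, where 4.12% of all genes were called, 2.64% higher and 1.48% lower. These 3 were also the members whose groups did not overlap (11.5% of all genes). The same 3 members, in the same directions, were called against E10.5-induced ME, where 17.9% of all genes were, 8.5% higher and 9.38% lower. There the groups did not overlap for 4 of the 7, these and Zbtb16 (25.7% of all genes). Both counts are over few genes, and the members were chosen with earlier results of these data known, so the counts are a description.

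For P28 against P0, 3 of 7 were called in WT (7.68% of all genes, 3.12% higher and 4.56% lower) and 3 of 7 in ME (18.2%, 9.79% higher and 8.45% lower), Lck higher and Id2 and Zbtb16 lower in each. In each the groups of these 3 did not overlap (9.27% of all genes in WT and 25.4% in ME). These counts too are over few genes, and the members were chosen with earlier results of these data known, so they are a description. With only library 1 of each P0 group, fewer genes of the whole table were called in both age comparisons. A call lost in that fit is therefore not read as a trait of the gene. The difference between the ME effects at P28 and at P0 was called for 0 of the 7 by edgeR (0.72% of all genes, 0.468% higher and 0.252% lower), with a smallest adjusted p of 0.456, 0 at an unadjusted p under 0.05, and 0 by DESeq2 and by limma voom. Over all 23059 genes DESeq2 called 782 and limma voom 644.

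**Figure D3:**
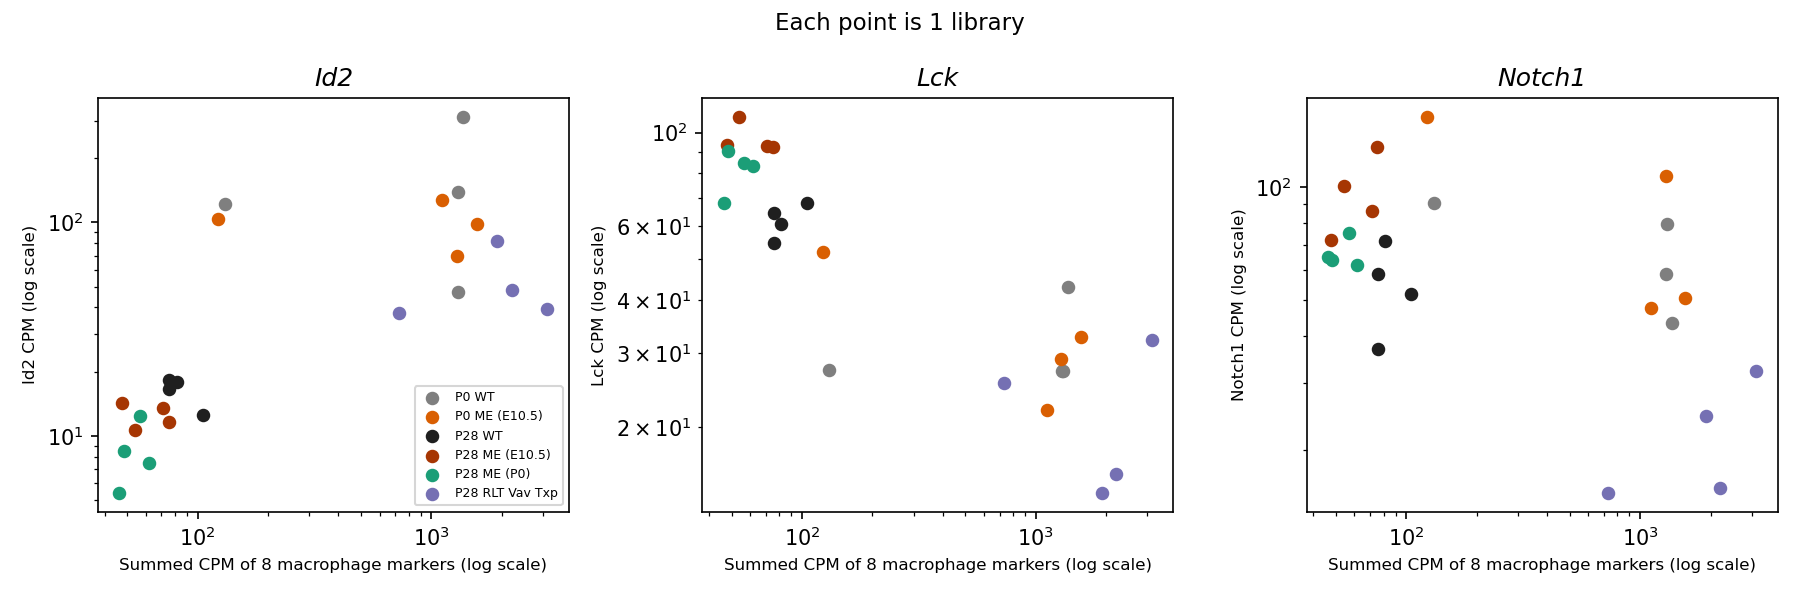
CPM of Id2, Lck and Notch1 (vertical axes, log scale) against the summed CPM of 8 macrophage markers (horizontal axis, log scale), with 1 point per library coloured by group. Libraries 1 of both P0 groups, at 131 and 123 CPM of macrophage markers, have Id2 at 122 and 104 CPM, while the RLT Vav Txp libraries lie at 729 CPM or more.

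The members that changed in RLT Vav Txp did so beside markers of other cells. All 8 macrophage markers were called higher there against P28 WT, and the libraries' macrophage sums of 3132, 729, 2202 and 1911 CPM went with Id2 at 39.5, 37.7, 48.4 and 82.2 CPM. RLT Vav Txp library 2, with the lowest macrophage sum, had Lck at 25.5 CPM and the lowest Notch1 level of the 4, at 15.3 CPM. Summed neutrophil markers ranged from 1908 to 6224 CPM against 675 to 887 CPM in P28 WT, with 0 of their 7 genes called by edgeR. Summed erythroid markers ranged from 792 to 1592 CPM against 218 to 321 CPM in P28 WT, with 0 of their 6 genes called. Megakaryocyte markers ranged from 195 to 370 against 47.3 to 61.5 CPM, with 2 of 4 tested genes called higher. Mast cell and basophil markers ranged from 84.9 to 199 against 7.87 to 43.4 CPM, with 1 of 7 called higher. Of all genes, 2.64% were called higher and 1.48% lower. The sum of 10 lymphoid-primed progenitor genes was 555 to 1398 CPM against 2037 to 2236 CPM in P28 WT. That of 13 long-term stem cell genes was 1450 to 1716 against 1695 to 2034 CPM, ranges that overlapped. Of these 13, 1 was called higher and 1 lower, with a median log2 fold change of 0.05. The part of these cell types in the changes of Id2, Lck and Notch1 was not tested.

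Among 15 tested T-cell transcription factors outside the members, 2 were higher in P0 ME than in P0 WT by edgeR (0.364% of all genes) and 0 lower (0.278%). They were Ets1, a factor of T-cell and natural killer cell development, at 1.11 log2 units (SE 0.19, adjusted p = 0.00389), and Tox, a factor of CD4 T-cell and innate lymphoid development, at 1.58 (SE 0.33, adjusted p = 0.0218). At P28, E10.5-induced ME had 5 of the 15 higher and 0 lower, where 7.82% of all genes were called higher and 4.44% lower. They included Ikzf1 (0.85, SE 0.17, adjusted p = 0.00427), the E protein gene Tcf3 (0.98, SE 0.22, adjusted p = 0.00722) and again Tox (1.30, SE 0.32, adjusted p = 0.0107) and Ets1 (0.68, SE 0.19, adjusted p = 0.0200). The mean of Tox was 8.12 ± 4.78 CPM in newborn WT against 24.2 ± 7.05 CPM in newborn ME, and 22.8 ± 4.03 CPM in P28 WT against 56.2 ± 7.90 CPM in its E10.5-induced counterpart (SD, n = 4). The median log2 fold change of the 15 was 0.58 at P0 and 0.49 at P28, against -0.01 and -0.10 over all genes. The gene lists, like the members, were chosen with earlier results of these data known, so list counts and medians are a description. With plain library totals Ets1 and Tcf12 were not called at P28, and with only library 1 of each P0 group neither Ets1 nor Tox was called at P0. P0-induced ME against P28 WT gave 0 calls among the 15 (1.57% of all genes), with a median of 0.46.

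In RLT Vav Txp against P28 WT, 3 of the 15 fell and 0 rose, where 1.48% of all genes were called lower and 2.64% higher. Satb1, a chromatin organiser of early lymphoid cells, fell by 2.06 log2 units (SE 0.41, edgeR adjusted p = 0.00388), Gfi1 fell by 1.47 (SE 0.20, edgeR adjusted p = 6.43e-05) and Ets1 fell by 0.84 (SE 0.19, edgeR adjusted p = 0.00823). Satb1 averaged 30.1 ± 24.4 CPM there against 125 ± 8.70 CPM in P28 WT (SD, n = 4). Against E10.5-induced ME, 9 fell and 1, Ikzf3, rose, where 9.38% of all genes were called lower and 8.5% higher. Between the ages, Lef1, a partner of beta-catenin related to Tcf7, fell by 4.15 in WT (SE 0.99, edgeR adjusted p = 0.0117) and fell by 5.96 in ME (SE 1.08, edgeR adjusted p = 0.000779), and Tox rose by 1.49 (SE 0.32, edgeR adjusted p = 0.00488) and 1.21 (SE 0.32, edgeR adjusted p = 0.0100). When only library 1 of each P0 group was kept, Lef1 was called in ME but not in WT, and Tox in neither.

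Of 28 Notch pathway genes other than Notch1, 1 fell and 0 rose in P0 ME (0.278% and 0.364% of all genes). It was Lfng, a glycosyltransferase that tunes Notch receptors to their ligands, at 88.4 ± 15.5 CPM in newborn WT and 46.3 ± 7.82 CPM in newborn ME (SD, n = 4; log2 fold change -0.93, SE 0.19, edgeR adjusted p = 0.0170), which was not called with only library 1 of each P0 group. In P28 E10.5-induced ME 3 of the 28 rose and 0 fell, a share near that of all genes, of which 7.82% were called higher and 4.44% lower. Among the 3 were Rbpj, the DNA-binding partner of cleaved Notch (0.82, SE 0.19, edgeR adjusted p = 0.00863), and the ligand gene Jag2 (0.91, SE 0.25, edgeR adjusted p = 0.0180). The target gene Hes1 gave -1.85 (SE 0.62, edgeR adjusted p = 0.0501) and was called lower under RLE scaling as under plain totals, and under plain totals Rbpj stayed called and Jag2 did not. RLT Vav Txp against P28 WT gave 1 call of 28, lower (1.48% of all genes), Mfng (-0.49, SE 0.14, edgeR adjusted p = 0.0496). Hes1 fell from P0 to P28 by 2.39 in WT (SE 0.62, edgeR adjusted p = 0.0170) and fell by 4.47 in ME (SE 0.68, edgeR adjusted p = 9.16e-05). With only library 1 of each P0 group the ME call was kept and the WT call was not.

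Genes of the T-cell receptor and its signalling, 22 of them tested beside Lck and Cd3e, gave 0 edgeR calls in the 3 comparisons of ME with WT at P0, E10.5-induced at P28 and P0-induced at P28. Their median log2 fold changes were 0.13, 0.25 and 0.22, against -0.01, -0.10 and -0.09 over all genes. Of all genes, 0.642%, 12.3% and 1.57% were called, so that 0 of 22 lay near the share at P0 and with P0 induction. In RLT Vav Txp against P28 WT, 2 of the 22 fell and 1 rose (1.48% and 2.64% of all genes). Trbc2, a constant segment of the beta chain, fell by 3.60 (SE 0.40, edgeR adjusted p = 3.6e-06) and Cd6 fell by 2.36 (SE 0.54, edgeR adjusted p = 0.00969). The costimulatory receptor gene Cd28 rose by 3.42 (SE 0.92, edgeR adjusted p = 0.0312). Trbc2 averaged 9.27 ± 2.88 CPM in P28 WT and 0.770 ± 0.421 CPM in RLT Vav Txp (SD, n = 4). From P0 to P28, 3 of the 22 fell and 1 rose in WT (4.56% and 3.12% of all genes), and 5 fell and 2 rose in ME (8.45% and 9.79%). Of 7 B-cell markers, 7 were called lower at P28 in WT and 6 in ME. Their summed level was 66.7 to 314 CPM in P0 WT and 226 to 491 CPM in P0 ME. At P28 it was 52.5 to 88.1 CPM in WT and 51.9 to 71.2 CPM in E10.5-induced ME. The part of B-lineage cells in the falls of Rag1, Lef1 and Il7r with age was not tested. Rag1, which cuts receptor genes for joining, fell by 3.95 in WT (SE 0.73, edgeR adjusted p = 0.00119) and fell by 2.97 in ME (SE 0.69, edgeR adjusted p = 0.00398), but was called in neither when only library 1 of each P0 group was kept.

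Among the 6 Id and E protein genes other than Id2, the Id genes Id1 and Id3 were lower at P28 as well. In WT 2 of the 6 were called lower and 1, Tcf4, higher (4.56% and 3.12% of all genes). In ME 2 were called lower and 0 higher (8.45% and 9.79%). Id3 fell by 4.29 in WT (SE 0.55, edgeR adjusted p = 2.34e-05) and fell by 3.77 in ME (SE 0.54, edgeR adjusted p = 4.64e-05), and Id1 fell by 3.25 (SE 0.57, edgeR adjusted p = 0.000758) and fell by 3.02 (SE 0.57, edgeR adjusted p = 0.000745). Id3 was called at both genotypes and Id1 at neither when only library 1 of each P0 group was kept. Tcf3 and Tcf12, E protein genes counted above as well, were the 2 of the 6 called higher in P28 E10.5-induced ME (7.82% of all genes). Tcf12 rose by 0.49 (SE 0.16, edgeR adjusted p = 0.0482) and was not called with RLE factors or plain totals. In RLT Vav Txp against E10.5-induced ME the 3 E protein genes Tcf3, Tcf4 and Tcf12 were called lower and Id3 higher (9.38% and 8.5% of all genes). Against P28 WT 0 of the 6 were called, near the share of 4.12% of all genes.

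Of 18 tested innate lymphoid and natural killer cell genes, 1 rose in P28 E10.5-induced ME and 0 fell (7.82% and 4.44% of all genes). It was Nfil3, a factor that acts ahead of Id2 in the innate lymphoid branch, at 7.74 ± 3.26 CPM in P28 WT and 22.5 ± 2.65 CPM in E10.5-induced ME (SD, n = 4; log2 fold change 1.54, SE 0.39, edgeR adjusted p = 0.0119). From P0 to P28, 2 of the 18 rose and 2 fell in WT (3.12% and 4.56% of all genes). In ME 2 rose and 1 fell (9.79% and 8.45%), shares near those of all genes. Il2rg, the shared receptor chain gene of the interleukin-2 family, rose by 0.56 in WT (SE 0.16, edgeR adjusted p = 0.0261) and 0.47 in ME (SE 0.16, edgeR adjusted p = 0.0364), and the chemokine gene Ccl5 rose by 3.09 (SE 0.89, edgeR adjusted p = 0.0321) and 3.00 (SE 0.89, edgeR adjusted p = 0.0204). Neither was called with only library 1 of each P0 group, and Il2rg was not called in ME with RLE factors. Il1rl1, the interleukin-33 receptor gene, fell by 6.44 in WT (SE 1.31, edgeR adjusted p = 0.00497) and was not called in ME. It is part of the natural killer and innate lymphoid sum, which was 525 CPM in P0 WT library 1 and 111 to 171 CPM in the other P0 WT libraries. The same library had the highest mast cell and basophil sum, 5857 CPM, and which cells carried Il1rl1 was not tested. Il7r, the receptor gene for interleukin-7, fell by 2.14 in WT (SE 0.56, edgeR adjusted p = 0.0184) and fell by 2.79 in ME (SE 0.58, edgeR adjusted p = 0.00162), calls that remained with only library 1 of each P0 group. The median log2 fold change of the 18 was 0.72 in RLT Vav Txp against P28 WT, against 0.01 over all genes. There 1 of the 18, Il2ra, was called higher and 0 lower (2.64% and 1.48% of all genes).

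The other GATA genes of blood had patterns unlike that of Gata3. Gata2, a stem cell factor, stood at 143 ± 18.4 CPM in P28 WT, at 276 ± 32.0 CPM with E10.5 induction, at 222 ± 16.2 CPM with P0 induction and at 256 ± 31.9 CPM in RLT Vav Txp (SD, n = 4). Gata1, the erythroid and megakaryocyte factor, stood at 4.37 ± 2.31, 14.8 ± 1.72, 12.2 ± 9.14 and 29.4 ± 13.9 CPM in the same groups. Gata2 rose in E10.5-induced ME by 0.95 (SE 0.23, edgeR adjusted p = 0.00934) and in RLT Vav Txp by 0.84 (SE 0.23, edgeR adjusted p = 0.0326), the latter not with plain library totals. Gata1 rose by 1.77 (SE 0.45, edgeR adjusted p = 0.0123) and 2.75 (SE 0.46, edgeR adjusted p = 0.00058). Erythroid marker sums were 176 to 350 CPM in E10.5-induced ME and 218 to 321 CPM in P28 WT, ranges that overlapped, while RLT Vav Txp lay above both. At P0 neither Gata1 nor Gata2 was called, and in P0-induced ME 0 of the 9 genes of the GATA list were called (1.57% of all genes).

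Of 12 progenitor factors that are switched off as T cells commit, 2 were higher in P0 ME and 0 lower (0.364% and 0.278% of all genes). They were Hoxa9 (1.03, SE 0.17, edgeR adjusted p = 0.00260) and Mef2c (0.77, SE 0.16, edgeR adjusted p = 0.0223). In P28 E10.5-induced ME 4 of the 12 were higher (7.82% of all genes), namely Gata2, Gfi1b, Mef2c and Hoxa9, of which Gata2 and Gfi1b were called also with RLE factors and plain totals. RLT Vav Txp against P28 WT had 4 lower (1.48% of all genes) and 2 higher (2.64%). Among the 4 were Hhex (-0.67, SE 0.13, edgeR adjusted p = 0.00260), Hoxa9 (-0.70, SE 0.17, edgeR adjusted p = 0.0160) and Mef2c (-0.69, SE 0.16, edgeR adjusted p = 0.0118). Flt3, the receptor of lymphoid-primed progenitors, averaged 1175 ± 59.3 CPM in P28 WT and 222 ± 139 CPM in RLT Vav Txp (SD, n = 4; log2 fold change -2.40, SE 0.33, edgeR adjusted p = 7.23e-05).

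**Figure D4:**
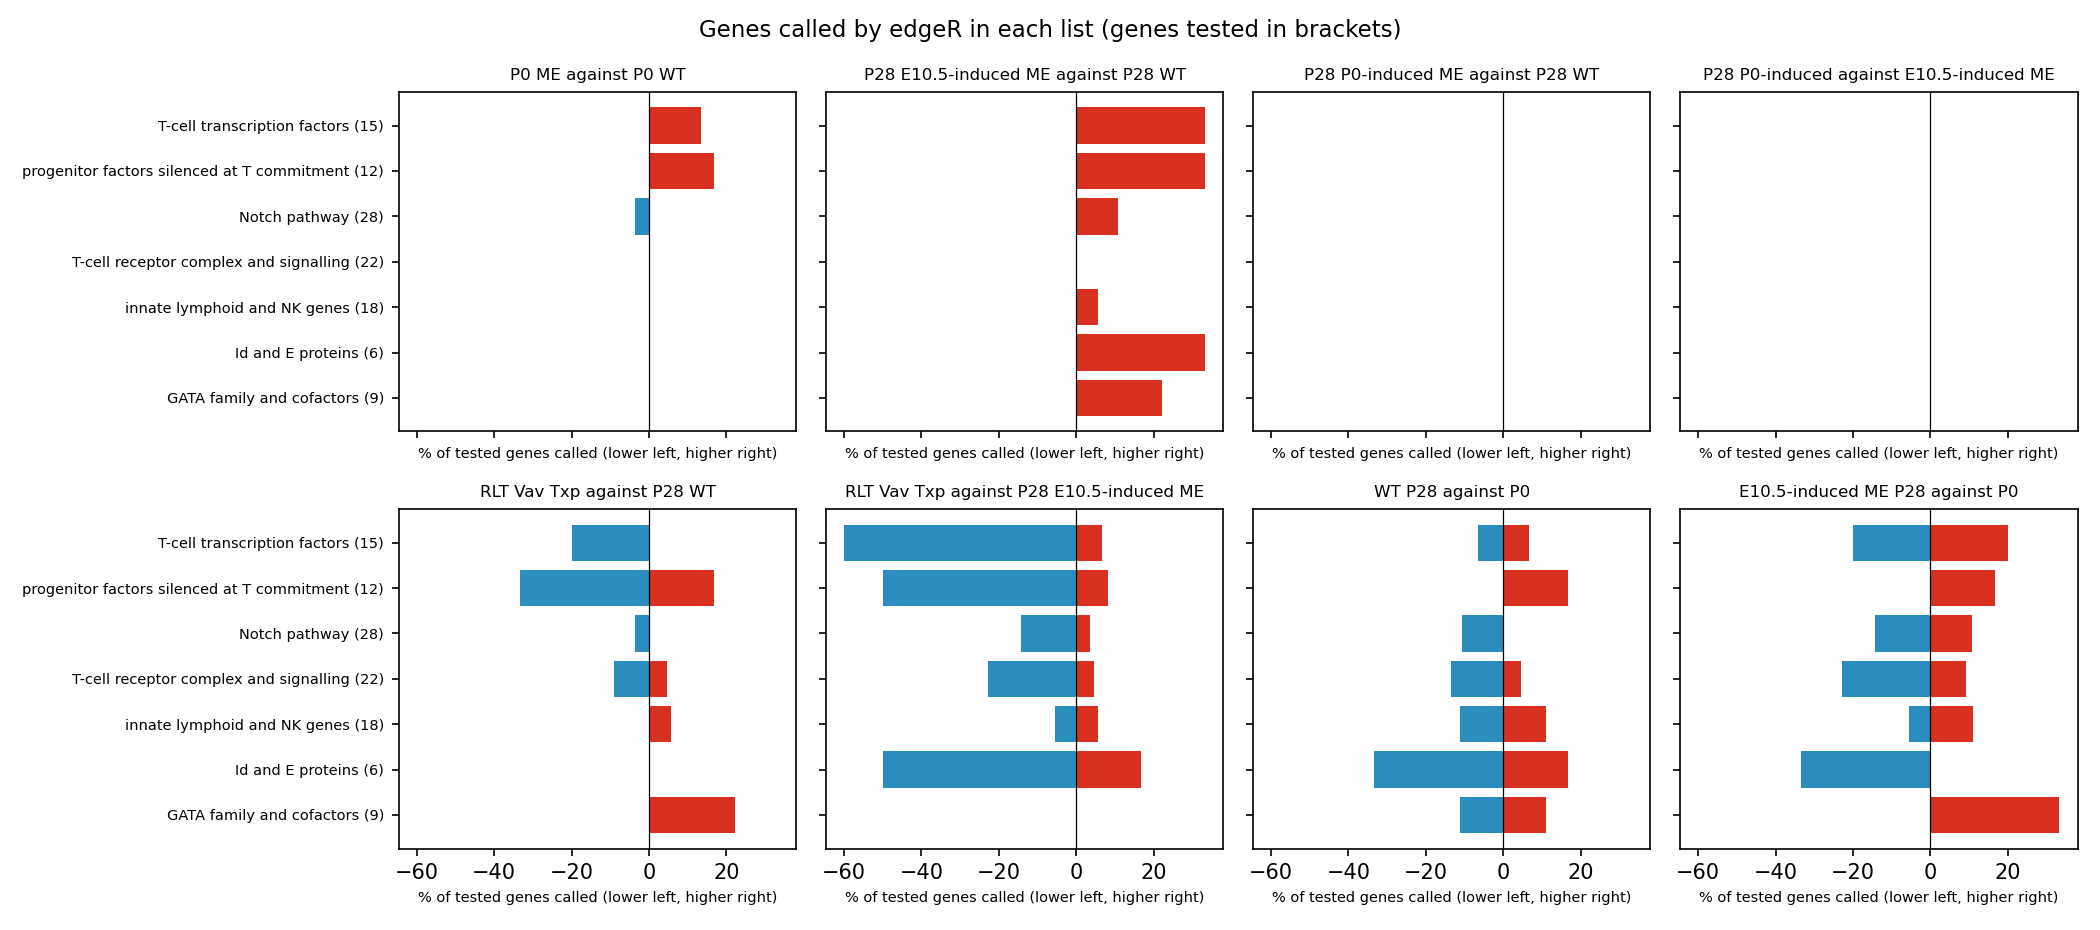
Percent of the tested genes of 7 lists (1 line each, with the number tested in brackets) called by edgeR in each of 8 comparisons (panels), lower to the left and higher to the right. In P28 E10.5-induced ME the calls are to the right (5 of 15 T-cell transcription factors), and in RLT Vav Txp against E10.5-induced ME most are to the left (9 of 15).

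The genes on either side of Gata3 were not called where Gata3 was low. Taf3, 24518 bases away, stood at 37.6 ± 4.13 CPM in P28 WT and 36.8 ± 1.55 CPM in E10.5-induced ME (SD, n = 4), and at 26.1 ± 7.05 and 25.4 ± 4.58 CPM in newborn WT and ME. Its log2 fold changes were -0.03 (SE 0.21, edgeR adjusted p = 0.953) and -0.04 (SE 0.21, edgeR adjusted p = 0.960). Celf2, the nearest tested protein-coding gene on the other side at 2347515 bases, gave 0.26 (SE 0.16, edgeR adjusted p = 0.314) and 0.08 (SE 0.16, edgeR adjusted p = 0.874). Inside the Gata3 span the annotation places 9230102O04Rik on the same strand and 4930412O13Rik and the antisense gene Gm13256 on the other. Without a stated strand setting their reads cannot be told apart from those of Gata3 where they overlap. Of these genes, 9230102O04Rik was far below Gata3. It averaged 0.701 ± 0.571 CPM in P28 WT (SD, n = 4), was listed at 0 in all 4 E10.5-induced libraries and reached at most 0.161 CPM in P0-induced ME. The levels of 4930412O13Rik and Gm13256 are not given here.

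By Pearson correlation over the 24 libraries, the genes most like Gata3 among 9651 ranked were Ptger3, a prostaglandin E2 receptor gene (r = 0.89), the keratin gene Krt18 (0.85), Casp12 (0.83), Cyp2j6 (0.83) and Dkkl1 (0.82). The points share library, depth and group. Within groups the same genes gave r from 0.02 to 0.50, so the likeness lay mainly in the group means. The mean of Ptger3 was 25.5 ± 10.7 CPM in newborn WT against 10.1 ± 3.16 CPM in newborn ME, and at P28 46.1 ± 10.7 CPM in WT, 18.7 ± 2.99 with E10.5 induction, 44.5 ± 3.92 with P0 induction and 66.4 ± 6.33 in RLT Vav Txp (SD, n = 4). Dkkl1 averaged 71.3 ± 7.65 CPM in P28 WT, 38.3 ± 3.31 with E10.5 induction, 54.8 ± 5.01 with P0 induction and 58.8 ± 10.9 in RLT Vav Txp, where it lay no higher than in WT. Over the 6 group means, genes near Gata3 included Emd (r = 0.98), Scarf1 (0.97), Sfxn2 (0.96) and Krt18 (0.96). These genes were picked for their likeness, so their levels are a description. No other member was close to Gata3, with r from -0.58 for Notch1 to 0.51 for Thy1 over the 24 libraries.

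**Figure D5:**
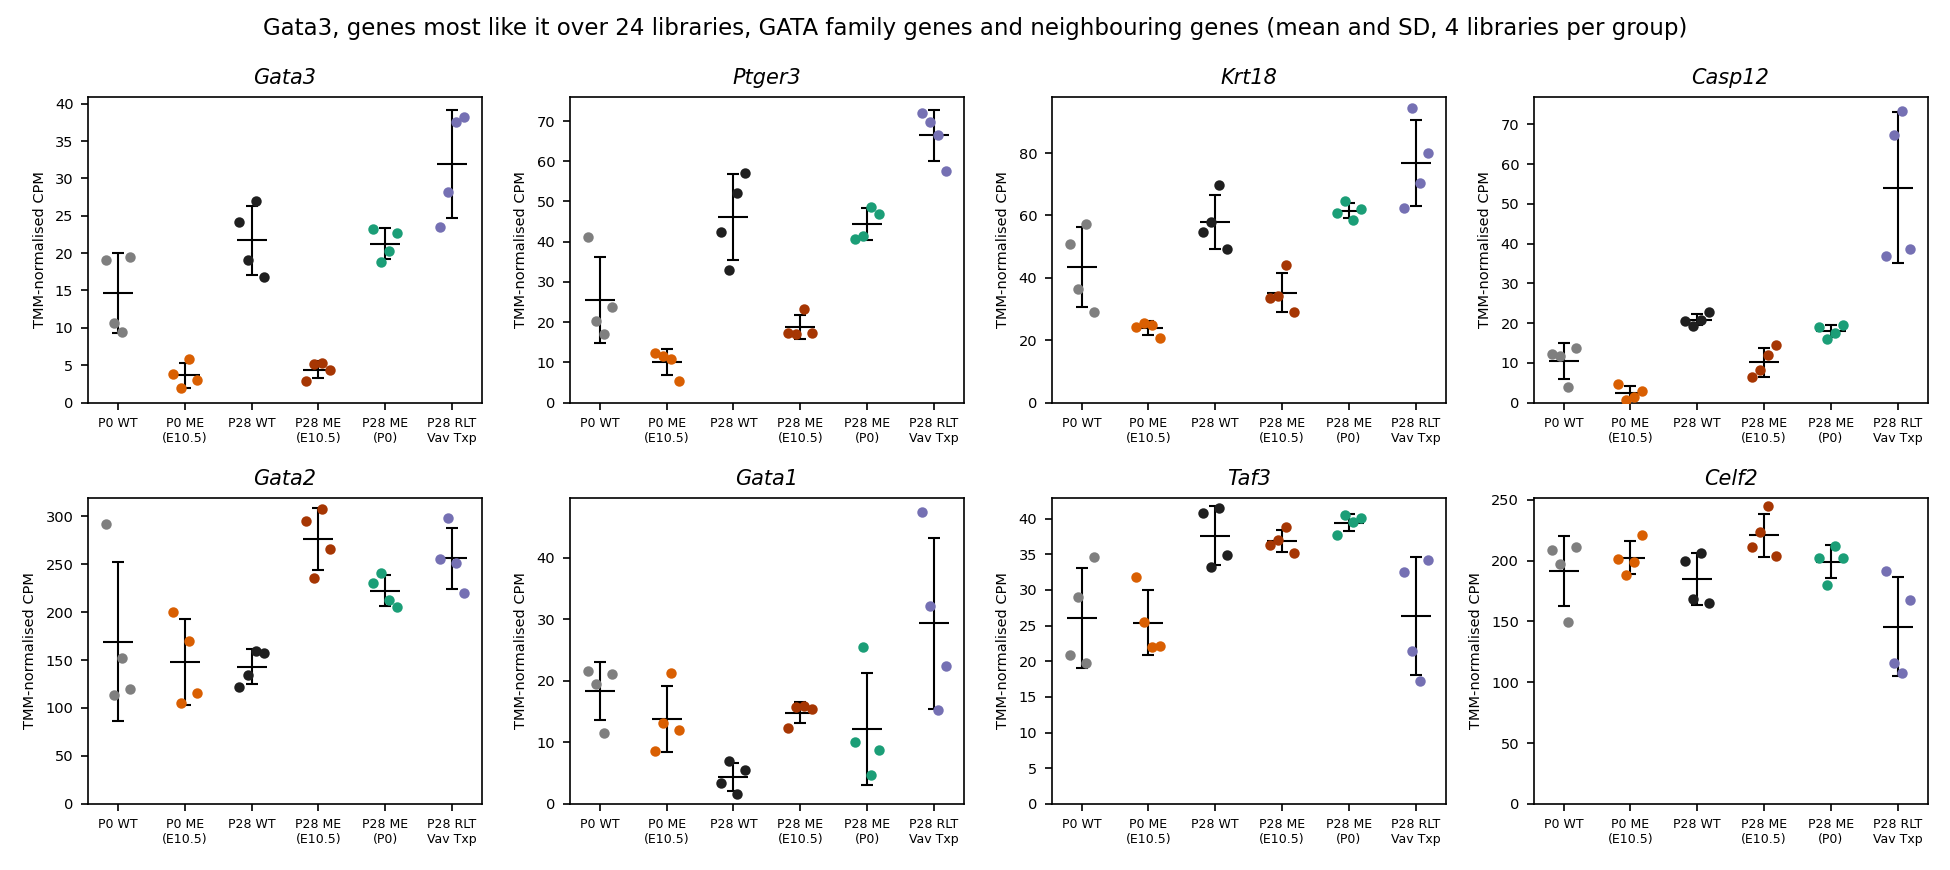
TMM-normalised CPM per library (points) with the group mean and SD (n = 4) for Gata3, 3 of the genes most like it (Ptger3, Krt18, Casp12), the GATA genes Gata2 and Gata1 and the neighbours Taf3 and Celf2, each vertical axis starting at 0. Ptger3 is at 18.7 CPM on average in P28 E10.5-induced ME and 46.1 in P28 WT, as Gata3 is low there, whereas Gata2 is higher there and Taf3 averages 36.8 and 37.6 CPM.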

How the data were processed

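Per the labels, RNA extraction used RNeasy Plus columns and library synthesis used Clontech SMARTer chemistry. The deposited table holds unnormalized counts for each Ensembl gene, made by the authors with STAR 2.7.9a and featureCounts 2.0.3 of Subread on GRCm38, per the submitters' processing notes. The strand setting, the treatment of reads with several matches and the annotation release are not given in the sources used here. Of 55774 entries, 287 repeats were dropped. Positions are from GENCODE M21 on GRCm38 and promoters from RefSeq.

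Genes were kept by filterByExpr (minimum count 10), TMM-scaled, and modelled in edgeR 4.0.16 with its robust quasi-likelihood model on all 24 libraries (18 residual degrees of freedom, R 4.3.3). Benjamini-Hochberg adjustment ran over all 23059 tested genes, with calls at 0.05, in 9 comparisons. Log2 CPM for correlations used a prior count of 2. Depth ran from 31233688 to 89774511 counts per library, and floors of 3 counts cover counting error only, since PCR copies are not independent molecules. The fit was tested on simulated data.

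Alternatives were RLE factors, plain library totals, DESeq2 1.42.0, limma voom (3.58.1) with quality weights, no filter, only the groups compared, a replicate block over the 20 numbered libraries and the same libraries unblocked, and each library left out in turn. A fit with only library 1 of each P0 group was added after seeing the data. It leaves 1 library in each P0 group, so a call lost there can follow from the smaller number of libraries. Libraries of RLT Vav Txp carry no number in their titles and were numbered in accession order. Named were the 9 members, up to 4 called genes per list and comparison with the smallest adjusted p, Kit and Ly6a, genes most like Gata3 (5 per measure, mean log2 CPM of at least 3, without predicted, antigen receptor and sex-marker genes) and its nearest tested protein-coding neighbours. Hes1 in E10.5-induced ME at P28, Ikzf3 and the genes inside the Gata3 span were named after their values were seen. The members and lists were chosen with earlier results of these data known. Some genes that this rule would name are not reported here. The human transgene is not analysed here.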

Additional observations from a re-analysis of the deposited data

Results flagged for a closer look

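The 51 sets of 4 libraries examined (a member in a group) each had at least 1 library above the floor. In 6 of them, 1 library lay far from the other 3 by the gap between it and its neighbour relative to the range. Chance gives about 1 in 20 such sets where values follow a normal distribution, which was not checked and need not hold for low counts. Bcl11b stood at 5.33 CPM in P0 WT library 4, where the other 3 were between 0 and 0.302 CPM, and at 3.27 CPM in P28 WT library 2, where the others reached 0.224 CPM. Lck stood at 43.1 CPM in P0 WT library 4, against 27.2 to 27.3 CPM in the others, and at 109 CPM in P28 E10.5-induced library 1, against 92.3 to 93.4 CPM. Cd3e stood at 0.205 CPM in P0 ME library 3, a value of 12 counts, where the others were at 0.0247 to 0.0464 CPM. It stood at 0.281 CPM in P28 P0-induced library 3, a value of 18 counts, where the others reached 0.0178 CPM. Both Cd3e sets were examined only because the flagged library lay above the floor, so nothing is read from their flags.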

How the results depend on the processing

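For P28 E10.5-induced ME against P28 WT, the count of called members other than Gata3 moved from 0 to 3 with limma voom. That fit called 6492 of 23059 genes, against 2827 in the main fit. The member count was 2 in a fit of only these groups (Notch1 and Lck), with 6296 of 18491 genes called. With the 20 numbered libraries and no block it was 1 (Lck), with 3019 of 22238 genes called. For P0-induced ME against P28 WT the member count moved from 0 to 1 with DESeq2 (Id2), where 1872 genes were called. It was 3 with limma voom (Zbtb16, Id2 and Lck), where 4998 genes were called. With only these groups it was 2 (Id2 and Lck), with 5196 of 18601 genes called. For P0-induced against E10.5-induced ME it moved from 0 to 1 with limma voom, where 2326 genes were called. For ME at P28 against P0 it also moved with only library 1 of each P0 group. The cause was not tested. No count of called members moved past 1.5 times on leaving out a single library, but a fall from 3 to 2 does not pass that limit. The Zbtb16 call at P28 against P0 was lost in 4 of 8 such fits in WT and 6 of 8 in ME. The Notch1 call in RLT Vav Txp against P28 WT was lost in 3 of 8. Counts over all genes did move past 1.5 times. Whether the replicate numbers pair the libraries was not settled. Deviations of same-numbered libraries correlated at -0.39 to 0.66 (median 0.03), over 0.1 in 14 of 40 pairs. Those of different-numbered libraries correlated at -0.49 to 0.40 (median -0.02), over 0.1 in 31 of 120 pairs. Of 20 libraries, 8 lay closest to their own number. With the replicate block the members called were 0 in each of the 3 comparisons of ME with WT, and 3 in each age comparison. Among Notch1, Lck, Id2 and Zbtb16, signs changed for 4 values, each smaller than its SE. For Zbtb16 in P0 ME against P0 WT (-0.03) the log2 fold change was 0.032 with plain totals, 0.29 with limma voom, 0.0041 with the replicate block, -1.76 with only library 1 of each P0 group, and -0.47 to 0.25 with single libraries left out. Leaving out libraries gave -0.16 to 0.28 for Lck in P0 ME against P0 WT, -0.21 to 1.95 for Zbtb16 in P28 E10.5-induced ME against P28 WT, and -0.084 to 0.50 for Notch1 in ME at P28 against P0, which was -0.60 with only library 1 of each P0 group. Gata3 in P0-induced ME against P28 WT (-0.03) lay between -0.13 and 0.10. Over all genes, plain totals moved the median log2 fold change of P28 E10.5-induced ME against P28 WT from -0.10 to -0.23, of RLT Vav Txp against P28 WT from 0.01 to -0.09, and of WT at P28 against P0 from -0.07 to 0.08. The higher calls of E10.5-induced ME against P28 WT were 1804 of 2827 with TMM, 1338 of 2561 with RLE and 750 of 2251 with plain totals. For P0 ME against P0 WT, 148 genes were called by edgeR, 802 by DESeq2 and 16 by limma voom, and for P0-induced ME against P28 WT 362, 1872 and 4998. With 1 library left out, edgeR counts over all genes were 575 for P0 ME against P0 WT without P0 WT library 1. For P28 E10.5-induced ME against P28 WT they were 893 and 1163 without P28 WT libraries 2 and 1 and 1552 to 1641 without E10.5-induced library 1, 2 or 3. For P0-induced ME against P28 WT they were 649 without P28 WT library 4 and 7 to 10 on leaving out any other single library. For P0-induced against E10.5-induced ME they were 4 to 7, against 11, without P0-induced library 1, 3 or 4. For RLT Vav Txp against E10.5-induced ME they were 2061 to 2682, against 4122, without RLT Vav Txp library 2, 3 or 4 or E10.5-induced library 1, 2 or 3. For P28 against P0 they were 1137 and 1159, against 1771, in WT without P28 WT libraries 1 and 3, and 2687 to 2804, against 4206, in ME without P28 library 2 or 3 or P0 library 2. The 166 genes of the difference between the ME effects became 11 to 1653 over the 16 libraries. Genes with few counts, Cd3e, Bcl11b, Thy1 and Tcf7, could not be resolved at this depth and spread.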
